A study of Arabidopsis thaliana with 4 samples.

Results

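A set of 102 probe sets held an even signal in cultured Arabidopsis cells on days 1, 3 and 5 after dilution and was lower on day 7. They were picked from 22746 probe sets by their signals on all 4 days. Signals under a floor of 25 were raised to it, the highest of days 1, 3 and 5 had to be less than 1.6 times the lowest, and day 7 at most 0.55 times that lowest. Every level and ratio of the members below therefore describes the choice and supports nothing by itself. The cells were MM2d, an Arabidopsis thaliana line that grows in suspension, sampled as 4 groups (day 1, day 3, day 5 and day 7) with 1 ATH1 array each and no replicate. All 4 groups share the same handling: 5 ml of an early stationary culture, 7 days after its own subculture, was put into 100 ml of MS-salt medium with 3% sucrose, 0.5 mg/l NAA (an auxin) and 0.05 mg/l kinetin (a cytokinin), and turned at 130 rpm in the dark at 27 °C. No genotype change, agent or treatment other than time sets the groups apart.

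A plant suspension culture divides after dilution into fresh medium and stops as sugar and other nutrients run out, the stationary phase. Dividing cells need replicated DNA and histones, spindle and kinetochore proteins, ribosomes, and plastids and mitochondria that multiply along with the cell. Plastids of dark-grown cultured cells keep their own genome and ribosomes although they do no photosynthesis.

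Of the 102 members, 61 carried the name of 1 gene in the platform's annotation, 2 carried several genes and 39 are unnamed here. The 61 are different genes, 60 of them found in RefSeq's table for assembly TAIR10.1, and only 8 have a symbol other than a locus code: PRL, BSH, LSM3A, LSM3B, PSBY, psbH, ndhF and DAL1. The other 53 are printed by locus code. What such a gene is known for is given as background from general knowledge of the Arabidopsis genome and is left out where unsure, since the tables used here hold no gene descriptions. No gene among the 61 has another probe set on the array, so no member could be set beside a second readout of its own transcript.

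The members were reduced on day 7, not lost. Day 7 still lay above the floor for 93 of them, and 9 were below it, 6 of them unnamed. The named ones were AT5G12930 (84.0, 79.4, 57.4 and 20.6 on days 1, 3, 5 and 7), AT5G52220 (72.2, 56.0, 62.0 and 19.9) and AT1G32470, the day 7 signal being at least 2.30-fold lower for the first and at least 2.24-fold for the second. Their median signal was 168, 143, 138 and 56.4 on the 4 days in order, while the median of all measured probe sets (above the floor on at least 1 day) was 78.9, 85.3, 90.5 and 89.9. Day 7 stood at a median of 0.483 times the lowest earlier day (quartiles 0.432 and 0.511, lowest 0.280). It was at least 2-fold below that lowest day for 64 members and at least 3-fold for 7. The rule took 0.448% of all probe sets. Among the 5789 that were even on days 1, 3 and 5 and bright enough to reach the limit (lowest earlier signal of at least 45.5), the 102 are 1.76%. Without the demand for evenness, 266 of 9520 such probe sets (2.79%) met the day 7 limit, so 164 were left out as uneven before.

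How many probe sets qualify depended on the scale of the day 7 array. The deposited MAS5 signals have the same trimmed mean on each array, and the spiked hybridisation controls averaged 132, 142, 137 and 107 on days 1, 3, 5 and 7, a ratio of 0.781 between days 7 and 5. Scaled to these controls, the day 7 signals of all probe sets go up beside the earlier days, and 23 of the 102 members met the rule. All 102 then had their lowest signal on day 7, with a median ratio of 0.603. The day 7 limit of the rule fixed beforehand that day 7 was lowest, because the controls differed too little between days to undo it. That count is therefore no check of the members. Over all measured probe sets, day 7 was the lowest day for 26.8% as deposited and for 10.8% on that scale, the shares to read beside each family below. Signals were raised to the floor first, so a probe set at or under it on an earlier day could not count. Such probe sets pull these shares down, and a family bright on all earlier days can exceed them for that reason alone. The 25 members followed through 16 other settings met the rule in 8 (LSM3A) to 14 of them (PRL, ndhF and AT4G17560), with a median of 12. Lower floors, a wider evenness limit or an array left out only loosen the rule and keep every member by construction. These counts are therefore no measure of stability. In such bulk samples, fewer cells of a type and less RNA per cell cannot be told apart. The day 7 array lay within the range of the other days in the ratio of 3' to 5' signal for actin (3.79, against 2.13 to 4.31), GAPDH (1.15, against 1.08 to 1.16) and ubiquitin (2.98, against 2.96 to 3.88). The actin ratio of 2.13 was that of day 5, so it was higher on day 7 than on day 5. The part of RNA quality in the result was not tested.

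**Figure D1:**
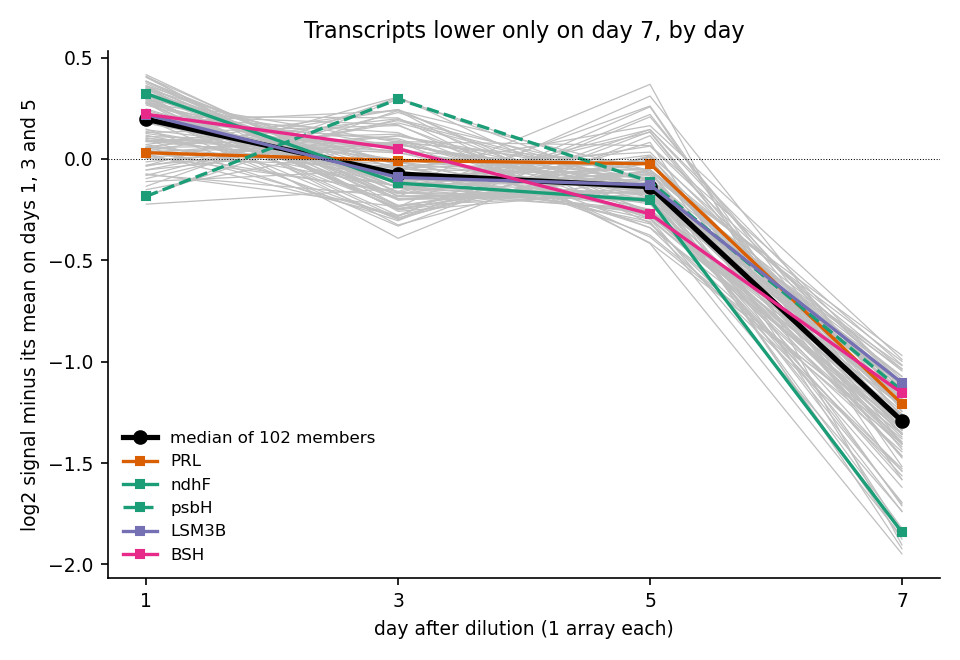
Log2 signal of each of the 102 members (grey lines) on days 1, 3, 5 and 7, minus its own mean over days 1, 3 and 5, with signals under 25 raised to 25 and 1 array per day. The black line is the median of the members, and 5 members with a symbol are coloured; PRL is almost level until day 5, ndhF ends among the lowest, and the rule fixes that every line ends low.

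The evenness limit left room for a slope before day 7. The members' median log2 difference was -0.23 between days 3 and 1, -0.05 between days 5 and 3, and -1.14 between days 7 and 5 (quartiles -1.39 and -1.02). Over 100 genes read by 2 probe sets, the SD of a single probe set was 0.55 between days 5 and 1 and 0.32 between days 7 and 5. It gauges 1 probe set, not a median over the members. Day 5 was below day 1 for 88 of 102, and 81 of 102 were at least 2-fold lower on day 7 than on day 5, against 2.72% of all measured probe sets. That share is fixed largely by the rule, and nothing is read from it. Among the 3 earlier days, day 1 was the highest for 68.6% of the members and day 5 for 9.80%, whereas among the 5687 other even probe sets day 1 was highest for 33.7% and day 5 for a like share of 34.0%. The mean signal over days 1, 3 and 5 had a median of 150 in members and of 137 in the other even probe sets.

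**Figure D2:**
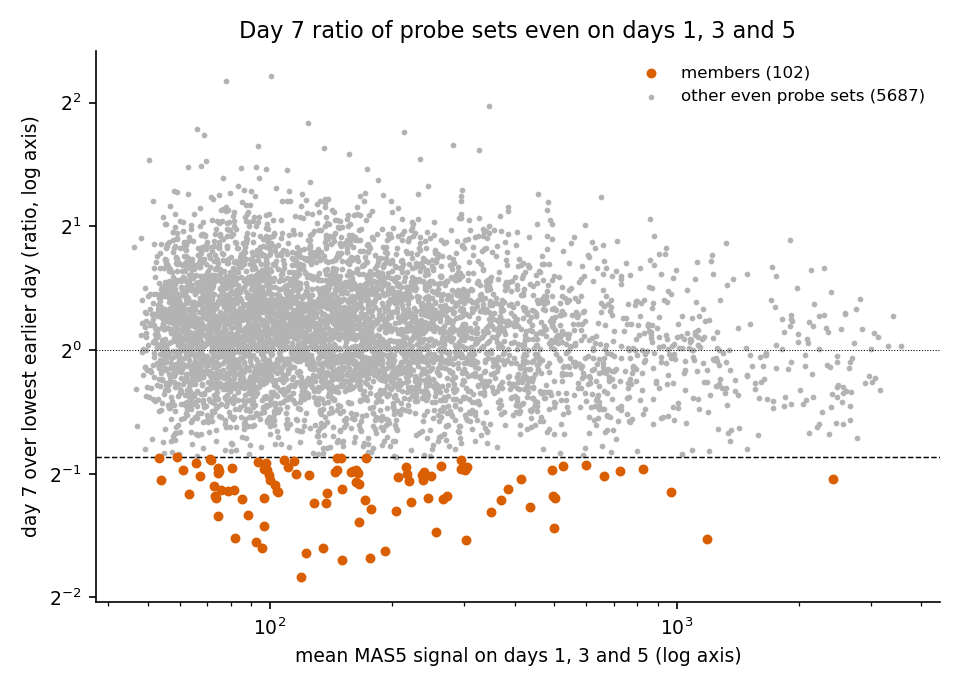
Day 7 signal over the lowest of days 1, 3 and 5 (log axis) against the mean signal of days 1, 3 and 5 (log axis) for the 102 members (orange) and the 5687 other probe sets that were even on those days and bright enough to reach the limit (grey). The dashed line is the limit of 0.55; members lie under it over mean signals from 53.5 to 2419, with no gap to the others at the line.

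The members form the edge of a continuous spread, with no gap at either limit. Just inside the limit on day 7 lay AT4G17000 (0.549), an unnamed probe set (0.547), AT4G34265 (0.546) and AT1G80720 (0.545). Just outside it lay AT2G20390 (0.5503), an unnamed probe set (0.551), AT2G39670 (0.552) and AT5G66230 (0.553). At the evenness limit PSBY (1.59) and AT2G37400 (1.59) were inside with 2 unnamed probe sets, and AT2G39795 (1.601) and AT3G57990 (1.63) were outside with 2 more.

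Among genes of cell division and chromatin, PRL was the most even member of all. PRL encodes MCM7, a subunit of the helicase that opens DNA at replication origins. Its signal was 508, 494, 489 and 215 on days 1, 3, 5 and 7. The first 3 days differ by a factor of 1.04, and day 7 was 2.27-fold below the lowest of them. The only other measured gene that a text search for DNA replication and chromatin assembly found was ICU2, a subunit of the polymerase that starts new DNA strands, with 170, 183, 292 and 168. ICU2 was likewise lowest on day 7, by a ratio of 0.988 to its lowest earlier day, but had its highest signal on day 5.

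AT3G44050, a kinesin-12 motor, had signals of 240, 158, 175 and 51.3 on days 1, 3, 5 and 7, a 3.08-fold difference between day 7 and the lowest earlier day. AT3G54630, the kinetochore protein NDC80, had 156, 108, 120 and 45.9 (2.35-fold). Both were already lower on day 3 than on day 1, stood at 0.730 and 0.773 times day 1 on day 5, and were lowest on day 7. The kinesin-12 genes KINESIN-12B (74.0, 67.8, 39.2 and 29.7) and AT3G20150 (80.0, 68.0, 43.4 and 25.9) stood further below day 1 on day 5, at 0.530 and 0.542 times it. AT3G48210, which encodes another subunit of the kinetochore's NDC80 complex, had 92.8, 75.8, 58.4 and 60.6, and was not lowest on day 7. AT3G08880, also of this complex, had 26.9, 19.9, 16.6 and 13.8, below the floor from day 3 on. Of 14 measured genes found by a text search for mitosis and cytokinesis, none was a member and 8 were lowest on day 7, where 26.8% of all measured probe sets were. Some of these 8 were lowest by very little, with ratios from 0.624 (AUR1) up to 0.985 (BUB3.1) and 0.998 (TUB5). The median log2 difference between days 7 and 5 over the 14 was -0.07. The count on the scale of the hybridisation controls is not given here. Of the 14, AUR1, an Aurora kinase of the spindle, had 475, 399, 363 and 227, and AUR3 had 181, 221, 118 and 133.

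AT2G37470, a histone H2B gene, had signals of 123, 83.4, 82.7 and 30.9 on days 1, 3, 5 and 7. Its day 7 signal was 0.373 times its lowest earlier one. H2B is one of the histones that form the nucleosome core, and most of it is made during DNA replication. Of the 8 other measured H2B genes, 3 were lowest on day 7 (26.8% of all measured probe sets were), with ratios from 0.817 (HTB11) to 0.959 (AT3G09480), and 5 had been lower on an earlier day. Scaled to the hybridisation controls, AT2G37470 alone of the 9 was lowest on day 7; it did not meet the rule with a common median, a common 75th percentile or quantile normalization. HTB2 had 304, 269, 569 and 472, with its highest signals on days 5 and 7.

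BSH, the SNF5-type subunit of SWI/SNF complexes that move nucleosomes, had signals of 340, 302, 242 and 131. It was 1.85-fold below its lowest earlier day on day 7, close to the limit. Of the other subunits with a symbol, SWI3A (88.6, 76.2, 68.7 and 57.0) and CHC1 (271, 240, 253 and 199) were lowest on day 7 too, by ratios of 0.829 and 0.833, but neither was when scaled to the hybridisation controls. CHB3 had 75.4, 92.4, 63.6 and 72.5 and was not lowest on day 7. Between days 7 and 5, SWI3A and CHC1 differed by -0.27 and -0.34 on the log2 scale. That is about as much as the SD of 0.32 of a single probe set for that difference, pooled over 100 genes read by 2 probe sets.

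**Figure D3:**
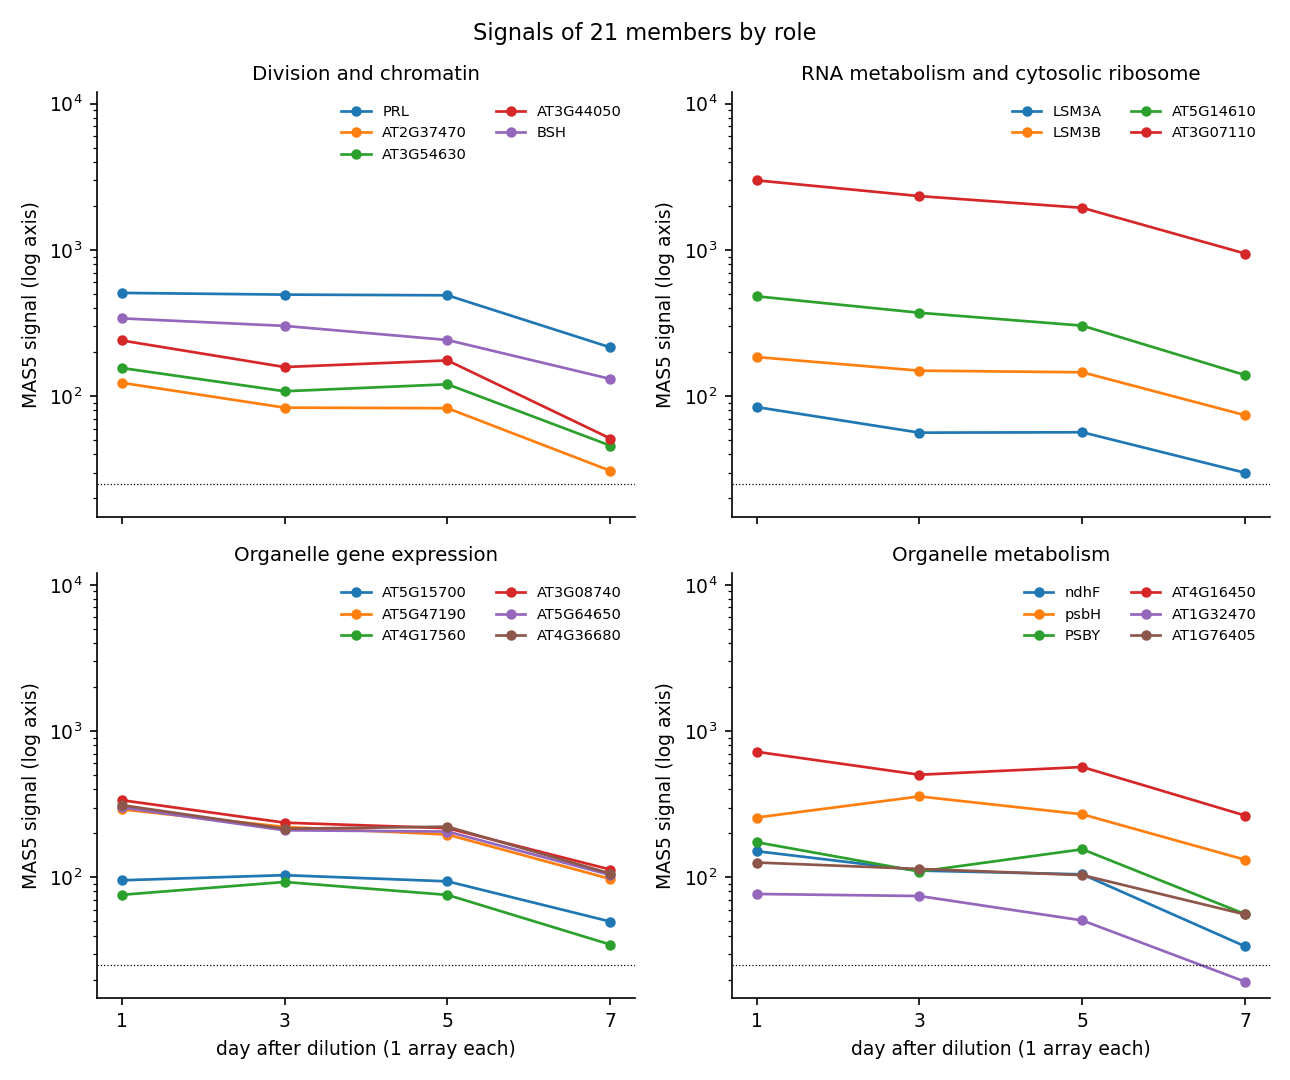
MAS5 signal (log axis) of 21 members on days 1, 3, 5 and 7, 1 array per day, in panels by role; the dotted line is the floor of 25. Up to day 5 some run nearly level and others slope down to near the evenness limit. On day 3 psbH and AT4G17560 rise and PSBY dips. All lie lowest on day 7, where only AT1G32470 of these 21 falls under the floor, at 19.3.

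In RNA metabolism, both genes for the Sm-like protein LSM3 were members. LSM3 sits in 2 rings of Sm-like proteins, a cytoplasmic one that starts the removal of mRNA caps and a nuclear one of the splicing machinery. LSM3A had signals of 84.2, 56.3, 56.6 and 29.9 on days 1, 3, 5 and 7. LSM3B had 185, 149, 146 and 74.0. The 2 genes thus had nearly the same ratio on day 7, 0.531 and 0.508, at different levels of signal. The 6 LSM genes looked up were those found by symbol, which cover LSM1, LSM3 and LSM6 only. The 4 besides the members were lowest on day 7 as well (26.8% of all measured probe sets were), with higher ratios. LSM6A had a ratio of 0.652, LSM1B 0.789, LSM1A 0.866 and LSM6B 0.930. With arrays scaled to the hybridisation controls 3 of the 6 were lowest on day 7 (10.8% of all) and none met the rule. These 3 include LSM3A and LSM3B, which the rule makes low.

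AT5G14610, a DEAD-box RNA helicase, had signals of 481, 372, 303 and 139, and its slope before day 7 lay just within the evenness limit. AT2G27330, an RNA-binding protein, had 119, 81.9, 79.6 and 42.5. AT3G07110, which encodes the cytosolic ribosomal protein L13a, was the brightest member with 2987, 2330, 1938 and 943. The other L13a genes met neither limit. They were uneven before, and their day 7 ratios were 0.794 (AT3G24830), 0.806 (AT4G13170) and 0.688 (AT5G48760). AT3G24830 had 2407, 2232, 1235 and 981, AT4G13170 had 1224, 935, 558 and 450, and AT5G48760 had 599, 336, 182 and 125. All 4 were lowest on day 7, or 2 of 4 when scaled to the hybridisation controls. Both counts include the member AT3G07110, which the rule makes low.

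Several members serve gene expression inside plastids and mitochondria. AT5G47190 and AT4G17560 both encode protein L19 of the plastid ribosome. The first had signals of 291, 221, 196 and 97.4 on days 1, 3, 5 and 7, and the second 75.9, 92.9, 75.8 and 34.7. Their day 7 ratios were 0.497 and 0.457. Of 32 nuclear genes for plastid ribosomal proteins listed by locus code, 9 had a named and measured probe set. The 7 besides the members ranged from a ratio of 0.364 in AT5G65220, which had 236, 117, 101 and 36.8 and was too uneven to qualify, to 1.27 in AT2G43030, and 6 of the 7 were lowest on day 7, where 26.8% of all measured probe sets were. Scaled to the hybridisation controls, 6 of the 9 were lowest (10.8% of all) and none met the rule. Both members, which the rule makes low, are among these 6.

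AT5G15700, a phage-type RNA polymerase that transcribes organelle genes, had signals of 95.4, 103, 93.9 and 49.8. Its first 3 days differed by a factor of 1.10. AT3G08740, an elongation factor P type translation factor, had 337, 236, 217 and 113. AT5G64650, a ribosomal protein of the L17 type, had 301, 210, 206 and 104, and AT4G36680, a pentatricopeptide repeat protein of the kind that binds organelle RNA, had 311, 215, 222 and 106. Their day 7 ratios were 0.521, 0.504 and 0.494.

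Members AT1G15870 and AT1G80720 belong to a family named for a mitochondrial glycoprotein and related to the p32 protein of the mitochondrial matrix. AT1G15870 had signals of 72.2, 79.3, 73.6 and 36.6 on days 1, 3, 5 and 7, and AT1G80720 had 168, 158, 121 and 66.1. Of the 7 other measured genes of the family, 3 also met the day 7 limit, against 2.79% of all probe sets that could reach it, but were too uneven before. AT2G39795 had 393, 333, 245 and 96.5 and missed the evenness limit narrowly. AT3G55605 had 569, 380, 279 and 120, and AT5G02050 had 846, 606, 209 and 99.6. AT4G32605 (ratio 0.616), AT5G05990 (0.804) and AT4G31930 (0.821) were lowest on day 7 as well, and AT2G41600 was not (1.33). The family was looked up after its 2 members had been seen. With scaling to the hybridisation controls 6 of its 9 measured genes were lowest on day 7 (10.8% of all) and none met the rule. Both members, which the rule makes low, are among these 6.

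**Figure D4:**
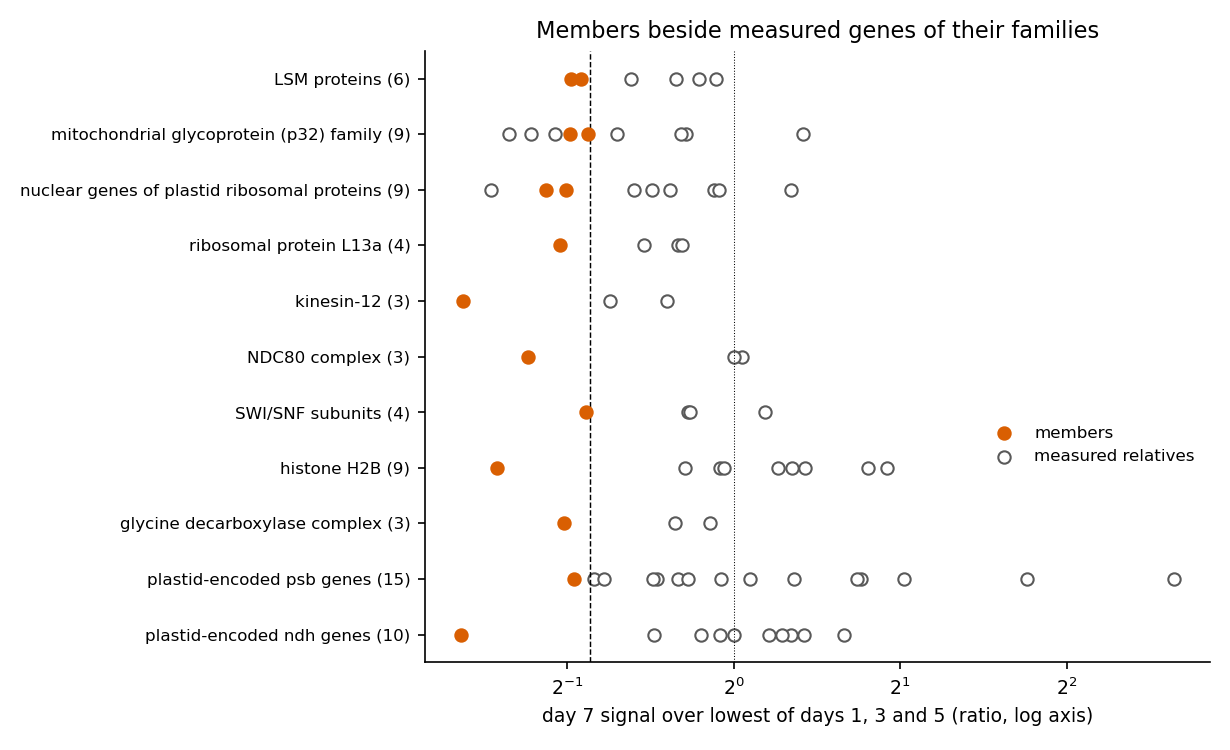
Day 7 signal over the lowest of days 1, 3 and 5 (log axis) for the measured genes of 11 families that hold a member; filled points are members, open points their relatives, the dashed line is 0.55 and the dotted line 1. Numbers in brackets count measured probe sets; only in the p32 family and among plastid ribosomal proteins do relatives also lie left of the dashed line.

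The plastid genome gave 2 members among its 69 measured genes. ndhF, a subunit of the thylakoid NDH complex, had signals of 151, 111, 105 and 33.7 on days 1, 3, 5 and 7, a ratio of 0.321. The 9 other ndh genes had ratios between 0.717 (ndhC) and 1.58 (ndhH), and 4 were lowest on day 7, ndhD by a ratio of 1.00 after rounding. Scaled to the hybridisation controls, 2 of the 10 were lowest, ndhF included. The neighbouring plastid genes rpl32 and ccsA had ratios of 0.728 and 0.789.

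psbH, a small subunit of photosystem II, had signals of 256, 357, 270 and 132, a ratio of 0.514. Its neighbours in the plastid genome did not all go with it. psbT, nearest in ratio with 0.559, had 544, 339, 406 and 190, while psbB (1.29), psbN (3.39), petB (1.02) and petD (1.38) were not lowest on day 7. Over all 69 plastid genes the median ratio was 1.07, and 31 were lowest on day 7, against 26.8% of all measured probe sets. Scaled to the hybridisation controls 14 were, against 10.8% of all. Both counts include psbH and ndhF, which the rule makes low. PSBY, a nuclear gene for another small protein of photosystem II, had 174, 109, 155 and 56.0. Its ratio was 0.511, and it had dipped on day 3 before. None of the other 7 measured genes that a text search for nuclear photosynthesis genes found was a member; PSBW had 85.5, 53.9, 88.2 and 54.5. Markers of green cells were present at low or moderate signals. RCA, rubisco activase, had 152, 112, 150 and 93.6, LHCB4.2 stayed at or under 1.14, 3 of 5 such markers passed the floor, and their summed signal was 285, 234, 283 and 204; their part in the result was not tested. Of the root hair markers EXPA7 passed the floor on 1 day (28.9 on day 7), and FMA, for guard cells, ranged from 21.8 to 42.8.

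Mitochondrial metabolism was represented by AT4G16450, a subunit of respiratory complex I, with signals of 722, 503, 568 and 264. AT1G32470, an H protein of glycine decarboxylase, had 76.9, 74.5, 50.7 and 19.3, so that its day 7 signal was at least 2.03-fold lower. The only other genes of that complex looked up here had ratios of 0.783 (AT2G35120) and 0.908 (AT1G11860). AT1G76405, a channel of the plastid's outer envelope of the OEP21 type, had 126, 114, 104 and 55.7, a ratio of 0.538, against 0.861 in its relative AT1G20816.

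Besides ndhF and AT3G44050, 5 members were at least 3-fold below their lowest earlier day. An unnamed probe set had 131, 112, 115 and 31.4, a 3.57-fold difference between day 7 and its lowest earlier day. A second unnamed one had 149, 157, 224 and 46.4 (3.21-fold). AT4G01270, a RING-type protein, had 177, 137, 137 and 42.2 (3.24-fold). AT5G47455 (159, 125, 122 and 40.2) and AT4G28310 (108, 88.5, 89.9 and 29.2) were 3.03-fold lower each. Next among the named members came AT5G38300 with 349, 244, 318 and 83.9 (2.90-fold). AT3G18280, a lipid-transfer type protein, had 541, 555, 403 and 148 (2.72-fold). No role shared by these genes is given in the tables.

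Among the 10 brightest named members were also AT1G20430 (806, 571, 616 and 283), AT4G28440 (603, 409, 496 and 179) and AT5G64680 (499, 394, 414 and 164). AT2G04000, annotated as a pseudogene, had 1322, 1377, 874 and 303, but its probe set is marked as cross-hybridising, so the source of its signal is uncertain. AT5G10850 was the other pseudogene, with 87.2, 59.5, 67.9 and 32.2. DAL1 had 187, 163, 147 and 69.6. Besides PRL, the most even members with a name were AT3G49320 (217, 222, 208 and 108) and AT1G30880 (284, 265, 271 and 117), each with a factor of 1.07 among the first 3 days.

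The 14 members not below day 1 on day 5 ran against the common slope, among them 3 with the largest such difference of the named ones. AT1G33260 had 93.4, 83.4, 122 and 41.5, AT5G62550 had 206, 166, 241 and 67.5, and AT4G25600 had 65.8, 68.5, 79.7 and 35.8. In these the difference between days 7 and 5 alone was -1.55, -1.84 and -1.15 on the log2 scale. AT1G03760, a prefoldin-type protein, was level between days 1 and 5 (119 and 119), with 87.5 on day 3 and 47.2 on day 7.

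The named nuclear members were scattered over the genome. By the gene order of TAIR10.1, 1 pair of the 58 nuclear members stood side by side: AT4G28430, a reticulon-type membrane protein (87.1, 73.1, 81.4 and 37.8), and AT4G28440. Another pair, AT5G64650 and AT5G64680, had 3 genes between them, and AT2G37400 and AT2G37470 had 9. Of 34 lists of genes searched by the text of symbols and synonyms, 30 found a measured gene. The lists for cytosolic ribosomal proteins, plastid-encoded genes, mitochondrion-encoded genes and phosphate response found none and could hold no member. Of the 30, only those for DNA replication and nuclear photosynthesis held a member, with 1 each; most members have no such text, so the lists say little about them.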

How the data were processed

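Biotin-labelled RNA from each day went onto 1 array, per the labels. The deposited files hold linear signal intensities that the authors computed with MAS5, as the submitters' processing notes record (version not given in the sources used here). The trimmed mean (2% off each end) was 100.0 on all 4 arrays, so values were compared as deposited. The number of arrays limits the precision. Of 22810 probe sets, 64 controls were left out. No test was possible with 1 array per day. Differences are of log2 signals raised to the floor of 25. The rule was checked on simulated arrays. As a gauge of error, genes read by 2 measured probe sets were compared.

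The members and lists were chosen with earlier results of these data known. The text names members with a symbol, the 10 brightest, the largest differences, those nearest each limit and those in a list; members described by role were chosen after their values were seen, as were the families set beside them. Promoter motifs were planned but not analysed here. In all, 16 alternative settings were tried with Python 3.11.15, numpy 2.4.6 and pandas 2.3.3.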

Additional observations from a re-analysis of the deposited data

How the results depend on the processing

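No paired analysis was possible because each day has 1 array and no result comes from a test. The planned median over other probe sets of the members' genes could not be run, since none exist. The count of 102 members was 83 with the floor at 40, 101 with it at the 40th percentile of all signals (chosen after seeing the data), 86 with a common median, 98 with a common 75th percentile, 130 after quantile normalization and 98 without cross-hybridising probe sets; of the 102, 55 remained with a common median and 87 after quantile normalization. It was 176 with the floor at 10, 326 in effect without a floor, 23 with the hybridisation controls, 64 and 17 with day 7 at most 0.5 and 0.4 times the lowest, and 51 and 172 with evenness limits of 1.4 and 2. Read without the day 1, day 3 or day 5 array, the rule took 233, 225 or 955 probe sets. The members' median log2 difference between days 7 and 5, -1.14, was -1.50 in effect without a floor, -1.62 with the limit at 0.4 and -0.55 without the day 5 array; for the members as chosen anew in each other setting it moved by less than 0.32 log2. Over the same 102 throughout, it was -0.80 with the hybridisation controls and between -1.18 and -1.06 in the others. The causes were not tested, except that stricter limits and fewer arrays change the count by construction. No member followed through the settings had day 7 above its lowest earlier day in any of them. The limit of 0.55 largely fixed this beforehand, so it is no check of the members.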
